A study of Mus musculus with 18 samples.

Results

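Meiotic maturation was described here in oocytes of mice whose drinking water held nicotinamide mononucleotide (NMN), from which cells make NAD. The members were chosen by sample title. They are 6 of the 18 deposited libraries, 3 germinal vesicle (GV) and 3 metaphase II (MII) oocytes of C57BL/6JAusb mice aged 12 months that drank NMN at 2 g/L for 4 weeks. The libraries are called GV oocytes 1, 2 and 2-1 and MII oocytes 1, 2 and 2-1 after their titles, and values for 3 oocytes are always given in that order. The titles of MII oocytes 1 and 2 name batch 1 and batch 2 and no oocyte number. These numbers were read as oocyte numbers, and read literally they put the 2 oocytes in different batches. The series also holds GV and MII oocytes of young controls (4 weeks) and of 12-month controls, neither given NMN, of the same strain. Of the 12 control libraries 10 were set beside the members, since 1 was identical to another and 1 was nearly empty.

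Each library was 1 oocyte, and the labels do not say which mouse it came from. Each group was therefore taken as 1 sample of its condition, and no test, p-value or standard error is given. Values are deposited expected counts divided by the library's scaled total and given as CPM, so a value is relative to the other RNA of the same oocyte. Less RNA per oocyte and a smaller share of it cannot be told apart. A gene is called lower (or higher) in MII where the mean differed at least 4-fold on the log2(CPM + 1) scale, the higher stage reached 10 CPM, and the 3 MII and 3 GV oocytes did not overlap. Those words describe these 6 oocytes only. Per the labels, the nucleus was pelleted and the liquid above it was sequenced; a GV oocyte has a nucleus and an MII oocyte does not, so the part of the oocyte sequenced can differ with stage.

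A GV oocyte is arrested in meiotic prophase with a large intact nucleus and a store of mRNA made during growth. When it matures, the nucleus breaks down, the first polar body is extruded, and the egg arrests again at metaphase II. Transcription is silent during maturation, so mRNA levels change by decay, and stored mRNAs are switched on by lengthening their poly(A) tails in the cytoplasm. The adaptor Btg4 brings the CCR4-NOT deadenylase to mRNAs that are to be removed, and Dcp2 takes the cap off deadenylated mRNAs.

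The MII oocytes held fewer detected genes than the GV oocytes. Genes with at least 1 count numbered 13215, 13495 and 9848 in the GV oocytes and 6400, 5640 and 7704 in the MII oocytes. Every MII oocyte lay below every GV oocyte, and the order stayed after each library was thinned to 2756183 counts, which left 12781, 13234 and 9883 against 6336, 5358 and 7645 genes. The 13 protein-coding and 5 other genes measured from the mitochondrial genome took 4.58, 2.87 and 3.68% of counts in the GV oocytes. Their share was 43.0, 33.2 and 6.18% in the MII oocytes, so MII oocytes 1 and 2 stood far above the GV oocytes and MII oocyte 2-1 just above them. The widest exact 95% binomial interval, which covers counting error only, was that of MII oocyte 1, from 42.9 to 43.05%. Library totals of the 6 oocytes ran from 2756183 to 4690515 counts, and 3 counts, the most that a count of 0 allows, came to 0.686 to 1.18 CPM.

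**Figure D1:**
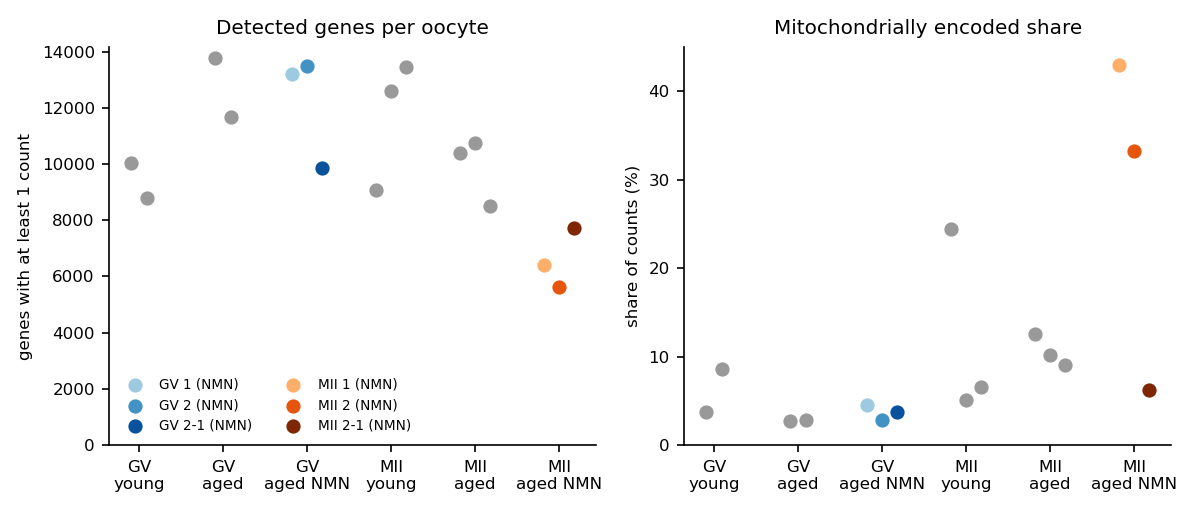
Genes with at least 1 count (left) and the percentage of counts from mitochondrially encoded genes (right), one point per oocyte, with the 6 oocytes of NMN-treated mice in colour and the 10 control oocytes in grey. The 3 MII oocytes of NMN-treated mice have the lowest numbers of detected genes, and 2 of them the highest mitochondrial shares, 43.0 and 33.2%.

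The label oocyte was checked against 15 oocyte markers, whose summed level was 25116, 21783 and 9116 CPM in the GV oocytes and 9378, 17891 and 8545 CPM in the MII oocytes. All but Ddx4 were above 5 CPM in each GV oocyte, while 6 of the 15 had no count in MII oocyte 1 (Zar1, Mos, Zp1, Padi6, Ooep and Ddx4), 5 had none in MII oocyte 2 (Zar1, Mos, Zp3, Kit and Ddx4), and Ddx4 had none in MII oocyte 2-1. Markers of cumulus and granulosa cells, which surround the oocyte, summed to 135, 81.2 and 53.8 CPM in the GV oocytes and 17.0, 0 and 274 CPM in the MII oocytes. In MII oocyte 2-1 most of that sum was Serpine2 (218 CPM) and Cyp19a1 (43.4 CPM), and 7 of the 16 markers, Amh, Fshr, Foxl2, Lhcgr, Has2, Ptx3 and Tnfaip6, were at 0 in all 6 oocytes. Immune markers summed to 105, 189 and 23.8 CPM in the GV oocytes and 0, 2.48 and 0 CPM in the MII oocytes, and C1qb made up most of the GV sums, while Ptprc was at 0 throughout. Markers of theca and stroma summed to 2.29, 5.70 and 0 CPM in the GV oocytes and 0, 0 and 6.87 CPM in the MII oocytes, and endothelial markers to 15.8, 16.6 and 5.38 CPM in the GV oocytes and 32.0, 0 and 9.99 CPM in the MII oocytes. Erythroid markers were at 0 except for 29.8 CPM in MII oocyte 2, and the part of other cells in the results below was not tested.

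Across 12161 genes that passed a filter on low counts, 1990 were lower in MII (16.4% of those tested) and 172 were higher (1.41%). No MII oocyte held a single count of 648 of the 1990 lower genes. The median log2 ratio over all genes was -0.82, and against the GV mean it was -1.60, -1.81 and -1.11 in MII oocytes 1, 2 and 2-1. Without MII oocyte 2-1, the counts were 2811 lower and 460 higher. The number of higher genes was the less stable one. It was 304 without MII oocyte 2, and 60 with the deposited TPM, which divides by transcript length, in place of CPM.

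**Figure D2:**
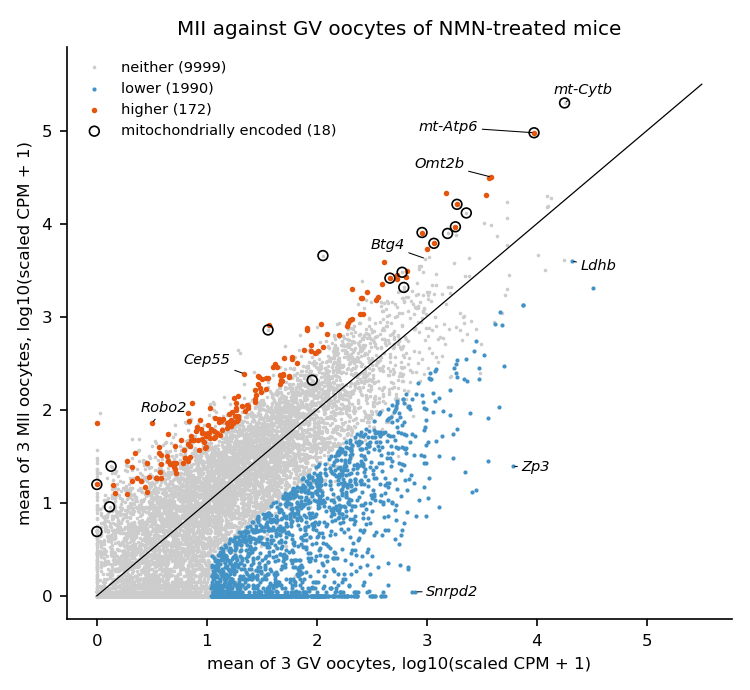
Mean of the 3 GV oocytes (horizontal) against the mean of the 3 MII oocytes (vertical) for 12161 genes, both as log10(scaled CPM + 1), with the line of equal levels. Lower genes (1990, blue) reach down to 0 in MII, higher genes (172, orange) lie above the line, and circles mark 18 mitochondrially encoded genes.

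The largest differences among the lower genes were in transcripts well represented in GV that were all but gone in MII. Snrpd2, a core protein of the spliceosomal snRNPs (GRCm38 chr7:19149722-19153542), was at 389, 356 and 1606 CPM in the GV oocytes and 0, 0 and 0.312 CPM in the MII oocytes. Its only MII count was in oocyte 2-1, and the pooled ratio of GV to MII was 6045 (95% exact interval 1085 to 238792). That interval pools the counts of each stage and covers counting error only, not the spread between oocytes. Lancl1, a glutathione-binding protein (chr1:67000517-67038872), was at 927, 1001 and 277 CPM in GV and 0, 0 and 0.312 CPM in MII. These 2 genes had the largest log2 ratios, -9.47 and -9.38. Among genes without any MII count, Mdh2, the malate dehydrogenase of the mitochondrial citric acid cycle (chr5:135778480-135790398), was at 466, 441 and 112 CPM in GV, at least 1014-fold lower in MII. Gja4, the connexin of the gap junctions between oocyte and granulosa cells (chr4:127311421-127314039), was at 521, 333 and 98.0 CPM in GV, at least 948-fold lower. Chmp2a, a subunit of the membrane-cutting ESCRT-III complex, was at 281, 296 and 562 CPM in GV, at least 1134-fold lower. Such bounds, here and below, pool the 3 MII oocytes and rest on 3 counts over that group, 0.335 CPM. They cover counting error only, not the spread between oocytes.

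Among the named higher genes, Robo2 had the largest log2 ratio. Robo2, an axon guidance receptor for Slit proteins (chr16:73891839-74411825), was at 5.03, 1.09 and 0.384 CPM in GV and 57.3, 143 and 12.2 CPM in MII, 32.6-fold higher by the means. Cep55, a midbody protein needed to cut daughter cells apart (chr19:38055011-38074423), was at 6.63, 36.4 and 19.6 CPM in GV and 282, 406 and 40.9 CPM in MII. For Ccp110, a centriole cap protein, the values were 5.49, 8.14 and 4.23 and 82.9, 132 and 9.06 CPM. In each of these genes MII oocyte 2-1 was the lowest MII oocyte and lay only just above the highest GV oocyte for Cep55 and Ccp110. Fgf9, a growth factor, was at 1.14, 4.89 and 4.23 CPM in GV and 92.8, 44.7 and 22.5 CPM in MII. Setd1b, a histone H3 lysine 4 methyltransferase, was at 0.914, 1.90 and 0.384 and 7.50, 37.8 and 24.0 CPM. Zfp706, a small zinc finger protein, was at 307, 516 and 407 CPM in GV and 4009, 6188 and 1473 CPM in MII.

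Most genes of the ribosome were lower in MII. Of 82 measured cytosolic ribosomal protein genes, 68 (82.9%) were lower against 16.4% of all genes, and 1 was higher. Their median log2 ratio was -3.84, or -3.86 with genes without a count set at the 3-count bound, and the all-gene median was -0.82. Without MII oocyte 2-1 the list's median was -5.97. The list summed to 17077, 13494 and 26803 CPM in the GV oocytes and 3917, 3742 and 7424 CPM in the MII oocytes. Every MII oocyte was below every GV oocyte. MII oocytes 1 and 2 had no count for 44 and 50 of the 82 genes, and MII oocyte 2-1 for 17. Rpl19, of the large subunit (chr11:98026710-98030492), was at 549, 470.1 and 674 CPM in GV and 0, 1.24 and 2.19 CPM in MII, 494-fold lower by the means. Rpl23a was at 145, 106 and 430.2 CPM in GV with no count in MII. The exception was Rps27l, a near copy of Rps27 that p53 is known to induce, at 296, 374 and 1322 CPM in GV and 3321, 3232 and 2772 CPM in MII; it was not called higher with library totals or TPM. Ribosomal protein genes have many processed pseudogenes in the mouse genome, and how reads were shared among copies is not given in the sources used here.

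Mitochondrial ribosomal proteins, which are encoded in the nucleus and build the ribosome of the mitochondrion, were also mostly lower. Of 78 measured genes 49 (62.8%) were lower and none higher, with a median of -3.40 (-3.56 with the bounds). Mrps22 was at 761, 669.7 and 429 CPM in GV and 0, 0 and 15.3 CPM in MII, and Mrpl1 at 169, 172 and 166 and 0, 0.310 and 0.937 CPM. Mrpl39 was at 171, 168 and 53.4 CPM in GV and 0, 0 and 0.625 CPM in MII. Translation factors were lower in 18 of 41 genes (43.9%), with a median of -2.01. Their summed level did not separate the stages, at 6977, 6558 and 8143 CPM in the GV oocytes and 5758, 4030.4 and 12108 CPM in the MII oocytes, where MII oocyte 2-1 was the highest of all 6. Eif3g and Eif3m, subunits of the initiation factor eIF3, were at 378, 304 and 236 and 198, 195 and 86.9 CPM in GV and at 0, 0 and 2.19 and 0, 0 and 0.312 CPM in MII. Eef1d, a subunit of the elongation factor 1 complex, had no count in MII and 439, 308 and 205 CPM in GV.

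Subunits of the respiratory chain differed in direction by the genome that encodes them. Oxidative phosphorylation is carried out by complexes whose subunits come mostly from nuclear genes and partly from 13 genes of the mitochondrial DNA. Of 77 measured nuclear subunits and assembly genes, 53 (68.8%) were lower, 1 was higher, and the median was -3.51. The nuclear list summed to 21163, 17250.0 and 37786 CPM in the GV oocytes and 2822, 2721 and 11646 CPM in the MII oocytes. Ndufb7 and Ndufb10, of complex I, had no count in MII and were at 234, 192 and 723 and 116, 169 and 207 CPM in GV, at least 1145-fold and 490.4-fold lower. Atp5o, of the ATP synthase, was at 560.3, 519.6 and 939.9 CPM in GV and 0, 0 and 2.81 CPM in MII, 719-fold lower. Cox8a, of complex IV, was the one called higher, at 139, 97.4 and 51.5 CPM in GV and 662, 259 and 309.8 CPM in MII.

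Of the 13 mitochondrially encoded mRNAs, 6 were higher (46.2% against 1.41% of all genes), none was lower, and the median was 3.10. Their sum was 47135, 27357 and 34758 CPM in the GV oocytes and 545782, 463648 and 56913 CPM in the MII oocytes. MII oocytes 1 and 2 were far above every GV oocyte, and MII oocyte 2-1 was above the highest GV oocyte by less. mt-Atp6, of the ATP synthase, was at 12119, 7077 and 9136 CPM in GV and 143127, 121206 and 20898 CPM in MII, 10.1-fold higher by the means. mt-Co2, of complex IV, was at 1963, 1019 and 2657 and 18276, 23728 and 6517 CPM. In mt-Cytb, of complex III, the GV values were 24057, 14780.3 and 14818 CPM and the MII values 323352, 254312 and 19068 CPM; it was not called, since MII oocyte 2-1 overlapped the GV oocytes. The median of the 13 was 3.28 and 3.66 in MII oocytes 1 and 2 and 0.81 in MII oocyte 2-1 against the GV mean. Between the only GV and MII oocytes whose titles carry a further batch 2 number (both 2-1), the median was 0.36. Without MII oocyte 2-1 the number higher was 12, against 460 of all 12161 genes. Nuclear copies of mitochondrial genes can share these reads. Among the 10 genes with the most counts in MII oocytes 1 and 2 were 2 predicted genes in each, which the naming rule leaves unnamed.

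Carbon metabolism was lower in part. In the citric acid cycle 10 of 21 genes (47.6%) were lower and none higher, with a median of -2.86. Beside Mdh2, Idh3g, a subunit of isocitrate dehydrogenase, was at 91.4, 61.6 and 38.4 CPM in GV and 0.395, 0 and 0 CPM in MII. For glycolysis and pyruvate, 7 of 26 genes (26.9%) were lower and 1 higher. The sum of this list was 26986, 24131 and 14662 CPM in the GV oocytes and 1326, 943 and 11001 CPM in the MII oocytes, and most of it, outside MII oocyte 2, was Ldhb, the lactate dehydrogenase subunit that is abundant in oocytes, at 25482, 23066 and 13859 CPM in GV and 952, 412 and 10539.8 CPM in MII. Ldhb was called lower, and of the MII oocytes only 2-1 came near the lowest GV oocyte. Aldoa, the aldolase, was at 169, 86.9 and 28.1 CPM in GV and 0, 1.24 and 0 CPM in MII. Slc2a3, a glucose transporter, was the one called higher, at 5.26, 5.43 and 1.92 and 20.9, 30.7 and 8.12 CPM.

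The list of NAD metabolism and sirtuins, chosen because NMN feeds NAD synthesis, held 4 lower genes of 20 and none higher. That share was near the 16.4% lower among all genes. The list's median was -1.97, against -0.82 for all genes. Its sum was 529, 595 and 404 CPM in the GV oocytes and 1267, 1021 and 581 CPM in the MII oocytes. By that sum MII oocytes 1 and 2 were above every GV oocyte, and MII oocyte 2-1 was within the GV range. The 4 lower genes follow. Sirt7 and Sirt5, NAD-dependent deacylases, were at 85.0, 79.8 and 7.30 and 15.3, 16.6 and 3.46 CPM in GV with no count in MII. Nadsyn1, an NAD synthetase, was at 2.51, 4.61 and 26.5 CPM in GV with no count in MII, and Parp2, an NAD-consuming enzyme, was at 29.49, 23.6 and 51.9 and 0, 0.310 and 11.9 CPM. Antioxidant enzymes were lower in 6 of 28 genes (21.4%). Gpx4, the lipid peroxide glutathione peroxidase, was at 157, 131 and 9.99 CPM in GV with no count in MII, at least 297-fold lower. Glrx, a glutaredoxin, was at 1590.4, 1216 and 291 CPM in GV and 0, 0.310 and 30.6 CPM in MII.

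Protein quality control was lower in part. The proteasome had 17 lower genes of 37 (45.9%), none higher, and a median of -1.82, which was -3.49 without MII oocyte 2-1. Psmb1, of the catalytic core, was at 889, 1021 and 1968 CPM in GV and 0, 0 and 24.0 CPM in MII, and Psmc4, an ATPase of the regulatory cap, at 371, 261 and 39.98 and 0, 0.310 and 0 CPM. Chaperones and the unfolded protein response had 13 lower genes of 39 (33.3%). Cct3 and Cct8, of the chaperonin that folds actin and tubulin, were at 366, 271 and 501 and 92.8, 32.8 and 112 CPM in GV and 0, 0 and 33.4 and 0, 0 and 6.56 CPM in MII. Hsp90aa1, the inducible cytosolic chaperone, did not separate the stages, at 2851, 3703 and 6433 CPM in GV and 1482, 681 and 20056 CPM in MII. The core spliceosome had 12 lower genes of 37 (32.4%), among them Snrpc, of the U1 snRNP, at 22.2, 17.6 and 7.69 CPM in GV without a count in MII. Without MII oocyte 2-1, the chaperone count was 22 and the spliceosome count 26, against 2811 lower among all 12161 genes. The medians of these 2 lists were -1.67 and -1.14. Between GV and MII oocytes 2-1 alone they were -1.11 and 0, with 0 for all genes.

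**Figure D3:**
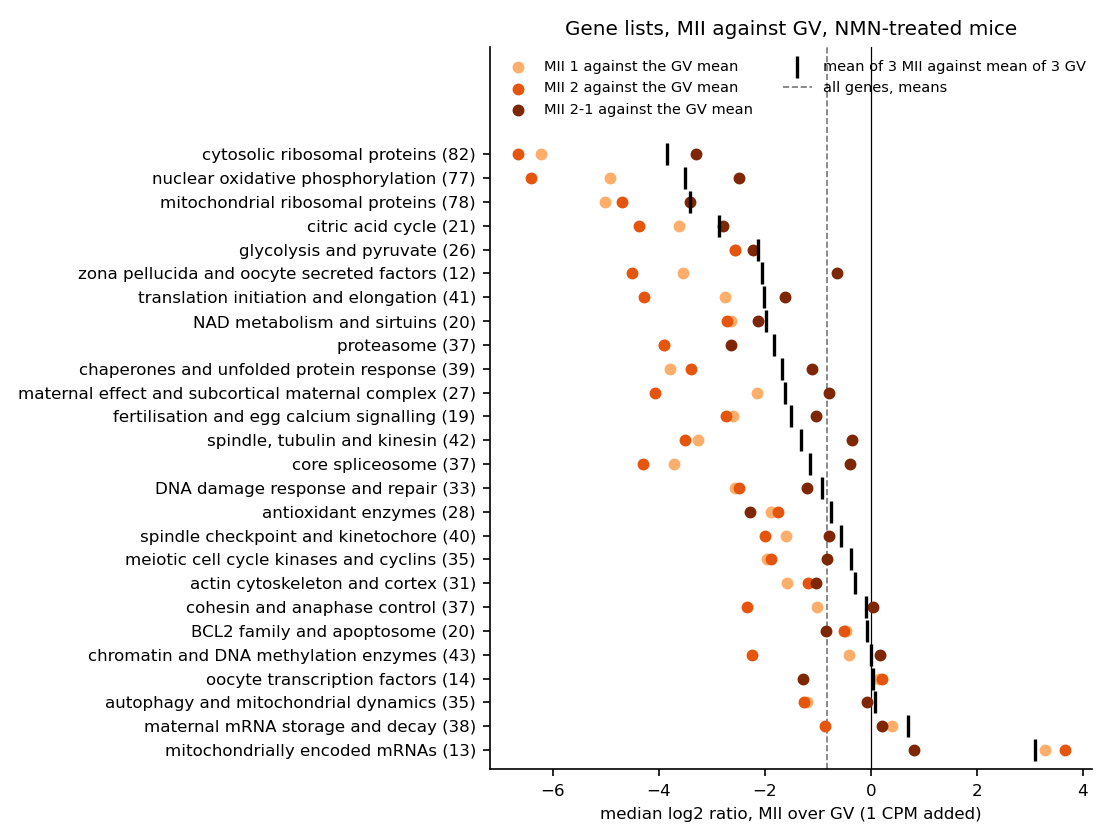
Median log2 ratio of 26 gene lists (number of measured genes in brackets), for each MII oocyte against the mean of the 3 GV oocytes (points) and for the mean of 3 MII against the mean of 3 GV oocytes (black ticks); the dashed line is the median of all genes, -0.82. Ribosomal, oxidative phosphorylation and citric acid cycle lists lie to the left in all 3 MII oocytes, and mitochondrially encoded mRNAs to the right.

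Of 12 zona and secreted genes, 4 (33.3%) were lower and none higher. The lower ones were 3 genes of the zona pellucida, the coat around the egg, and Fgf8, a growth factor secreted by the oocyte. Zp1, Zp2 and Zp3 encode the zona filaments. Zp3 (chr5:135980099-135988624) was at 8818, 8274 and 1027 CPM in GV and 3.55, 0 and 67.5 CPM in MII, 255-fold lower by the means. Zp1 was at 350.0, 241 and 147 and 0, 0.310 and 2.81 CPM and Zp2 at 238, 278 and 572 and 8.29, 4.03 and 64.6 CPM. No MII oocyte reached the lowest GV oocyte for any of the 3 zona genes. Fgf8 was at 116, 84.1 and 3.84 CPM in GV with no count in MII, at least 203-fold lower. Gdf9, a secreted growth factor that acts on cumulus cells, was at 6570.0, 4551 and 1109 CPM in GV and 198, 179.6 and 2272 CPM in MII, and its partner Bmp15 at 195, 201 and 249.9 and 129, 271 and 562 CPM. Both overlapped between stages. MII oocytes 1 and 2 were below every GV oocyte for Gdf9, and for Bmp15 only MII oocyte 1 was. Figla, the transcription factor of the zona genes, was at 83.4, 60.3 and 64.6 CPM in GV with no count in MII, at least 207-fold lower.

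Maternal effect genes supply the early embryo, and several of them form a complex under the egg membrane. Of 27 measured, 8 (29.6%) were lower and none higher. Khdc3, of that complex, was at 3099, 3112 and 425 CPM in GV and 0, 10.2 and 51.2 CPM in MII, 108-fold lower. Padi6, of the cytoplasmic lattices, was at 601, 534 and 439 and 0, 6.51 and 10.3 CPM, and Tle6 at 451, 416 and 578 and 30.0, 0 and 69.3 CPM. Nlrp5, of the same complex, did not overlap between stages but missed the 4-fold rule, at 123, 197 and 520.5 CPM in GV and 96.7, 45.6 and 116 CPM in MII. Dppa3, which shields maternal DNA methylation after fertilisation, was at 9196, 8989 and 21829.5 CPM in GV and 10526, 8596 and 37599 CPM in MII. Without MII oocyte 2-1, 16 of the 27 were lower, against 2811 of all 12161 genes.

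Genes that handle maternal mRNA had members in each direction. Of 38 genes for storage and decay, 6 (15.8%, near the 16.4% of all genes) were lower and 3 (7.89%) were higher, and the median was 0.69. That median was 0.42, 0.30 and 0.35 without MII oocytes 1, 2 and 2-1, and -0.13 with the mean of log2 values, so it had no firm direction. The higher ones were Dcp2, the decapping enzyme, Tent2, a cytoplasmic poly(A) polymerase, and Cnot6, a CCR4-type deadenylase. Dcp2 was at 5.94, 13.3 and 2.31 CPM in GV and 119.7, 41.3 and 33.1 CPM in MII. Tent2 was at 6.40, 13.0 and 4.61 and 64.4, 68.9 and 34.7 CPM, and Cnot6 at 9.83, 10.04 and 0 and 49.0, 19.9 and 69.0 CPM. None of the 3 was called with TPM. Btg4 was at 989.9, 1346 and 575 CPM in GV and 1444, 10564 and 638 CPM in MII, where oocyte 2 was far above the GV oocytes, oocyte 1 just above them and oocyte 2-1 within their range. Cnot7, a CAF1-type deadenylase of the same complex, was at 178, 188 and 249 and 837, 933 and 223 CPM, and Dazl, an RNA-binding activator of stored mRNAs, at 483, 688 and 173 and 1018, 1763 and 380.0 CPM. Among the lower members, Zar1l, related to the mRNA-storing Zar1, was at 254, 235 and 90.7 CPM in GV and 0, 0 and 0.937 CPM in MII.

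Meiotic cell cycle genes included members in each direction. Of 35 kinases, cyclins and their partners, 6 (17.1%, near the 16.4% of all genes) were lower and 2 (5.71%, against 1.41%) were higher. Cdk1, the kinase of maturation promoting factor, was at 303, 248 and 83.0 CPM in GV and 0, 0 and 8.12 CPM in MII, 78.1-fold lower. Its cyclin Ccnb1 was at 415, 268 and 254 CPM in GV and 1103, 3044 and 189 CPM in MII, and Ccnb2 at 564, 398 and 47.3 and 630.2, 1026 and 151 CPM. Ccnb1 was above the GV range in MII oocytes 1 and 2 and below it in MII oocyte 2-1. Cks2, a Cdk1-binding subunit, was called higher at 407, 284 and 484 CPM in GV and 2596, 3656 and 545 CPM in MII. Prkaca, the catalytic subunit of protein kinase A, was the other one called higher, at 0.914, 1.90 and 2.69 and 6.32, 19.2 and 10.6 CPM. Mos, the kinase that holds the metaphase II arrest, was at 1002, 858 and 133 CPM in GV and 0, 0 and 332 CPM in MII. Plat, tissue plasminogen activator, a classic stored mRNA, was at 334, 383 and 441 and 0, 0 and 1109.5 CPM. For both of these, MII oocytes 1 and 2 had no count, and MII oocyte 2-1 was within the GV range for Mos and above it for Plat.

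Chromosome segregation lists were mixed. Cohesin and anaphase genes had 4 lower of 37 (10.8%, below the 16.4% of all genes), and Fzr1, an activator of the anaphase-promoting complex, was at 41.4, 30.9 and 15.8 CPM in GV and 0, 0 and 0.312 CPM in MII. Pttg1, securin, was at 4019.7, 3175 and 2803 CPM in GV and 16203, 8801 and 5763 CPM in MII, above every GV oocyte in each, with a log2 ratio of 1.62 that missed the 4-fold rule. Checkpoint and kinetochore genes had 8 lower and 1 higher of 40. Spc24, of the NDC80 complex, was lower at 256, 214 and 441 CPM in GV and 1.58, 42.5 and 25.6 CPM in MII, while Nuf2, of the same complex, was higher at 26.5, 35.6 and 75.7 and 276, 229 and 126 CPM. The spindle, tubulin and kinesin list had 13 lower of 42 (31.0%). Tubb4b, a beta tubulin, was at 1394, 872 and 393 CPM in GV and 55.3, 3.72 and 35.9 CPM in MII, and Tacc3, a spindle microtubule protein, at 277, 203 and 423 and 0, 3.41 and 23.7 CPM. Without MII oocyte 2-1 the lower counts were 14 for cohesin and anaphase, 15 for checkpoint and kinetochore and 21 for the spindle list. The count over all 12161 genes also rose, from 1990 to 2811. The median of the spindle list was -1.32, and between GV and MII oocytes 2-1 alone it was 0, as for all genes.

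In the other lists, 1 to 8 genes were lower, and their shares stand against 16.4% of all genes. Actin and cortex genes had 7 lower of 31 (22.6%) and 1 higher. Actb, cytoplasmic actin, was at 64.2, 64.9 and 26.1 CPM in GV and 0, 1.24 and 5.00 CPM in MII, 24.9-fold lower. Gapdh, a common reference gene, was at 63.6, 37.5 and 6.53 and 35.5, 3.10 and 17.5 CPM and overlapped. Fertilisation and egg calcium genes had 5 lower of 19 (26.3%), among them Izumo1r, the egg receptor for sperm Izumo1, at 287, 218 and 77.3 CPM in GV and 3.16, 0 and 26.9 CPM in MII. DNA repair genes had 8 lower of 33 (24.2%), such as Ercc1, a nucleotide excision repair subunit, at 66.3, 59.7 and 13.5 CPM in GV without a count in MII. Chromatin genes had 4 lower of 43 (9.30%) and 1 higher. Dnmt1, the maintenance DNA methyltransferase, was at 389.8, 555 and 474 CPM in GV and 0, 1.55 and 249 CPM in MII, so that only MII oocytes 1 and 2 had almost none. Autophagy and mitochondrial dynamics had 4 lower of 35 (11.4%), oocyte transcription factors 2 of 14 (14.3%), and the BCL2 family and apoptosome 1 of 20 (5.00%). That gene was Bax, at 32.0, 32.3 and 2.69 CPM in GV without a count in MII. The BCL2 and apoptosome list summed to 5083, 8965 and 3198 CPM in GV and 11968, 18484 and 4886 CPM in MII. By that sum MII oocytes 1 and 2 were above every GV oocyte.

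**Figure D4:**
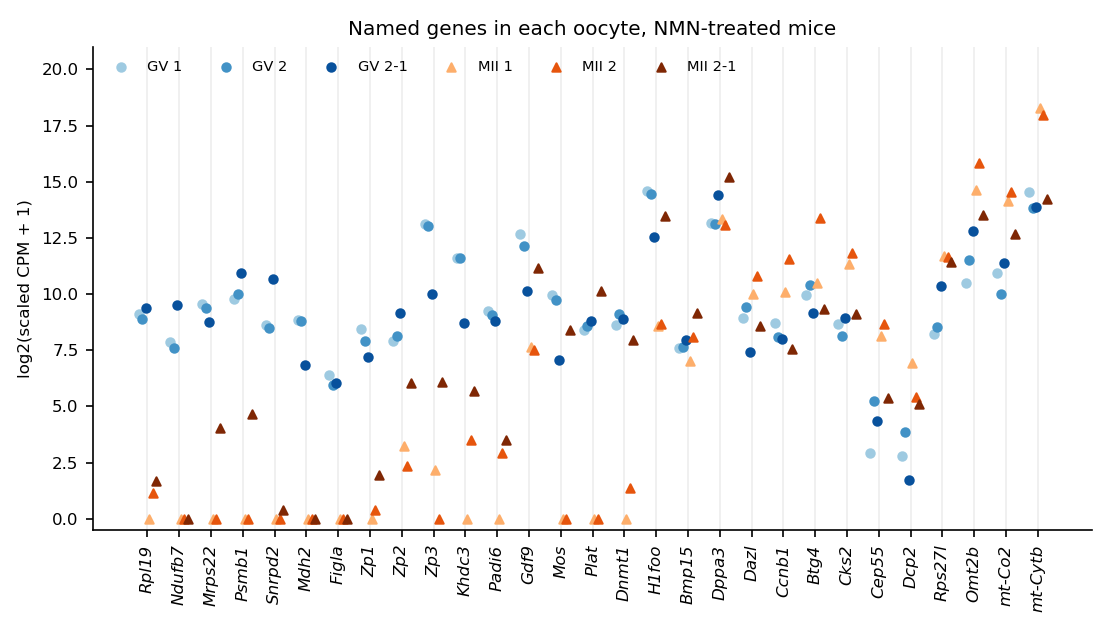
log2(scaled CPM + 1) of 29 named genes in each of the 6 oocytes (circles GV, triangles MII; shades mark the oocyte). Ndufb7, Mdh2 and Figla are at 0 in all MII oocytes, Mos and Plat are at 0 in MII oocytes 1 and 2 and at 332 and 1109.5 CPM in MII oocyte 2-1, and Cks2, Cep55, Dcp2, Rps27l, Omt2b and mt-Co2 lie above every GV oocyte in all 3 MII oocytes.

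The 3 MII oocytes differed among themselves more than the GV oocytes did. Across the 12161 genes, Spearman's rho was 0.61 between MII oocytes 1 and 2, 0.57 between 1 and 2-1, and 0.49 between 2 and 2-1. Between GV oocytes it was 0.90, 0.75 and 0.78 for the pairs 1 and 2, 1 and 2-1, and 2 and 2-1. MII oocyte 2-1 was at 0.56 to 0.62 with the GV oocytes, and MII oocytes 1 and 2 were at 0.42 to 0.48. These values describe genes of the same libraries, which share depth and scaling. Of 4481 genes at 10 CPM or more in each of the 3 GV oocytes, 1355, 1557 and 614 had no count in MII oocytes 1, 2 and 2-1, and 342 had none in any of them. The same 4481 genes lacked a count in 59 to 443 cases per control MII oocyte.

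Of 6235 genes at a GV mean of 10 CPM or more, 2676, 2945 and 1787 were at least 4-fold below the lowest GV oocyte in MII oocytes 1, 2 and 2-1. All 3 MII oocytes shared 1095 of them, another 962 were that low in MII oocytes 1 and 2 and not in MII oocyte 2-1, and 266 in MII oocyte 2-1 alone. At least 4-fold above the highest GV oocyte and at 10 CPM or more were 443, 531 and 281 genes. All 3 MII oocytes shared 10, MII oocytes 1 and 2 shared 111 more, and 222 were that high in MII oocyte 2-1 alone.

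The abundant transcripts of the MII oocytes were not the same. The 10 genes with the most counts took 50.1, 43.9 and 24.3% of counts in MII oocytes 1, 2 and 2-1 and 16.2, 15.5 and 18.2% in the GV oocytes. In MII oocytes 1 and 2 mt-Cytb and mt-Atp6 led. Omt2a and Omt2b, oocyte maturation genes, were among the 10 in both. They are near copies, so the split of reads between them is uncertain. Omt2b was at 1454, 2939 and 7207 CPM in GV and 25688, 57857 and 11672 CPM in MII, and Omt2a at 1192, 2303 and 7572 and 23316, 61079.6 and 9764 CPM. Mphosph6, a factor of the RNA exosome, was at 4701, 5961 and 5278 CPM in GV and 26594, 20955 and 3860.3 CPM in MII. Sub1, a transcriptional coactivator, was at 4077, 4192 and 29849 CPM in GV and 509, 591 and 45980.4 CPM in MII. Oocyte 2-1 was the highest within each stage for Sub1, which was among the 10 most abundant in MII oocyte 2-1. H1foo, the oocyte linker histone, was at 24778, 22397 and 5959.9 CPM in GV and 385, 408 and 11559 CPM in MII, lower in MII oocytes 1 and 2 than in any GV oocyte. Spin1, a spindle and histone-reading protein, was at 7659.6, 8087 and 21668 and 19575, 20478 and 4975 CPM and overlapped.

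The 3' UTRs of the lower and higher genes were compared, since cytoplasmic polyadenylation is read from the end of the mRNA. One transcript per gene was taken from GENCODE vM21 (GRCm38), which gave 10455 genes with a 3' UTR of at least 30 bases. The median 3' UTR was 470 bases in 1803 lower genes, 1143 bases in 129 higher genes and 930 bases in all. Whole transcripts had medians of 1952, 2811 and 2931 bases in the same order. The cytoplasmic polyadenylation element was searched on the mRNA strand as TTTTAT or TTTTAAT in the last 150 bases. It was present in 274 lower genes (15.2%), 45 higher genes (34.9%) and 2578 of all genes (24.7%). Where the 3' UTR had at least 150 bases, the shares were 17.0, 34.9 and 26.0%.

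Within 3' UTRs of 30 to 300 bases, 9.38% of 693 lower, 7 of 14 higher and 17.4% of all 2242 genes held the element. For lengths over 300 and up to 1000 bases the shares were 16.7% of 557, 45.0% of 40 and 25.4% of 3235 genes, and above 1000 bases 116 of 553, 26.7% of 75 and 27.4% of 4978. The higher genes thus exceeded all genes in the shorter 2 classes and not in the longest. Median log2 ratios of all genes in the 3 classes were -1.76, -0.91 and -0.45. The 2578 genes with the element had a median of -0.31, with 10.6% lower and 1.75% higher, and the 7877 without it a median of -1.046, with 19.4% lower and 1.07% higher. A Pumilio-type motif, TGTANATA, stood in the last 150 bases of 5.21% of lower, 7.75% of higher and 6.67% of all genes. Annotated ends need not be those used in the oocyte, and a match is a description of these letters only.

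**Figure D5:**
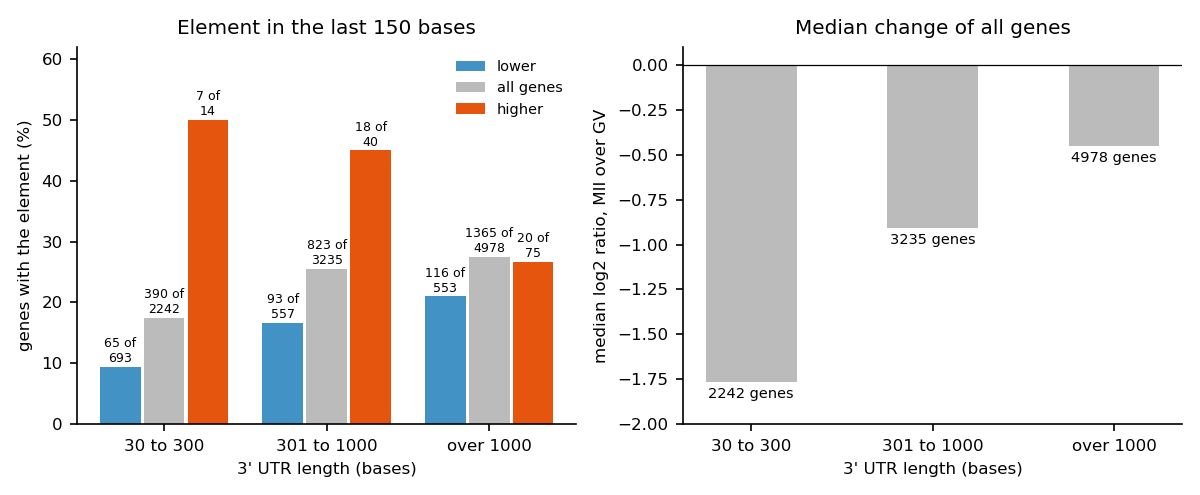
Left, percentage of lower, all and higher genes with the cytoplasmic polyadenylation element in the last 150 bases, by 3' UTR length in bases (counts above the bars). Right, median log2 ratio of all genes in the same classes, which is lowest, -1.76, in the shortest class.

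Stretches of 30 bases around the element or, where no element was found, the polyadenylation hexamer AATAAA are shown for genes described above, with the motifs in capitals. The first 6 are genes called higher, or above the GV range in MII oocytes 1 and 2, and hold the element. The last 3 are genes called lower with the hexamer and no element in the searched part. Their 3' UTRs have only 98, 61 and 49 bases, shorter than the 150 bases searched in longer ones. Those of the first 6 run from 173 bases (Rps27l) to 1028 bases (Ccnb1), so the 2 sets also differ in length. In Omt2b and Cnot7 element and hexamer stand side by side or nearly so, and in Rps27l the element follows the hexamer.
Omt2b: gggttttaacggTTTTATAATAAAtaaaag
Cep55: aaccaaaatgtgTTTTATtccttcagattt
Cks2: tataaatgcctgTTTTATtttacctgtttt
Rps27l: cagtttttcAATAAAgTTTTAATtatggac
Cnot7: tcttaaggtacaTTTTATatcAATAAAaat
Ccnb1: tctcatttgctgTTTTAATttatacatctg
Rpl19: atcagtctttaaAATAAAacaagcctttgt
Ndufb7: acctatcagtgaAATAAAagctttgggtca
Zp2: ttggacttgcaAATAAAgagactgcagtta

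In GRCm38 these stretches lie at chr9:78329555-78329584, plus strand (Omt2b), chr19:38074321-38074350, plus strand (Cep55), chr13:51650598-51650627, plus strand (Cks2), chr9:66949485-66949514, plus strand (Rps27l), chr8:40493038-40493067, minus strand (Cnot7) and chr13:100778776-100778805, minus strand (Ccnb1). The other 3 lie at chr11:98030443-98030472, plus strand (Rpl19), chr8:83571587-83571616, plus strand (Ndufb7) and chr7:120132359-120132388, minus strand (Zp2). All are in 3' UTR exons. The element was not limited to higher genes. Psmb1, Tubb2b and Dnmt1, all called lower, hold it in their last 150 bases. Most higher genes lacked it there, since 45 of 129 held it. Zfp706, Tent2 and Cnot6, all called higher, have the hexamer and no element in the searched part.

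The same rule gave fewer lower genes in both control groups and more higher genes in young controls. In young controls, with 3 MII and 2 GV oocytes, 1204 genes (9.9%) were lower and 1032 (8.49%) higher, and the median was 0.35. In 12-month controls, also 3 against 2, 1548 (12.7%) were lower and 169 (1.39%) higher, with a median of -0.29. These contrasts share no oocyte with that of NMN-treated mice, but 2 GV oocytes leave overlap easier to avoid than 3. Of the 1990 lower genes, 1091 (54.8% of these and 70.5% of the 1548) were lower in 12-month controls, 794 (39.9% of these and 66.0% of the 1204) in young controls, 659 in both, and 764 in neither. Of the 172 higher genes, 31 (18.02% of these and 3.004% of the 1032) were higher in young controls, 10 (5.81% of these and 5.92% of the 169) in 12-month controls, and 132 in neither. The difference between conditions was not tested.

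Cytosolic ribosomal and nuclear oxidative phosphorylation genes had negative medians in all 3 conditions. Ribosomal genes were at -3.84 in NMN-treated mice, -3.48 in young controls and -3.33 in 12-month controls, with 68, 57 and 63 of 82 genes lower. Nuclear oxidative phosphorylation was at -3.51, -3.21 and -2.62, with 53, 56 and 46 of 77 lower. Figla had a log2 ratio of -6.14 in NMN-treated mice, -5.73 in young and -4.95 in 12-month controls. Mitochondrially encoded mRNAs were at 3.10, 0.92 and 1.56, with 6, 0 and 4 of 13 genes higher. The MII oocytes of young controls summed to 42575 to 278422 CPM for these mRNAs, a range that holds MII oocyte 2-1 and not oocytes 1 and 2 of NMN-treated mice. Those of 12-month controls summed to 84379 to 93677 CPM, above MII oocyte 2-1 and below MII oocytes 1 and 2 of NMN-treated mice.

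Several lists had a negative median in NMN-treated mice and one near or above 0 in young controls. The citric acid cycle was at -2.86, -0.25 and -1.76 in NMN-treated, young and 12-month control mice, glycolysis at -2.12, 0.34 and -1.47, and zona and secreted factors at -2.04, 0.28 and 0.38. The zona and secreted median of NMN-treated mice was -4.01 without MII oocyte 2-1 and -1.27 without GV oocyte 1. It turned to 0.52 between GV and MII oocytes 2-1 alone, and to 0.072 when MII oocytes 2 and 2-1 were set against GV oocyte 2-1 by a literal reading of the titles. Maternal effect genes were at -1.62 (-2.55 without MII oocyte 2-1), 0.04 and -0.55 in the same order. Zp3 had a log2 ratio of -7.94, -1.66 and -3.44, Mos of -2.58, 3.12 and 0.36, and H1foo of -2.10, 2.14 and 0.74. Zp1 was at -6.92, -0.64 and -3.88, and Zp2, at -3.77, -3.93 and -4.81, was negative in all conditions. By the rule, 4 zona and secreted genes were lower in NMN-treated mice, 1 in young controls and 4 in 12-month controls. The medians of all genes were -0.82, 0.35 and -0.29 in that order. In MII oocyte 2-1 the zona and secreted list was at -0.64 and maternal effect genes at -0.79 against the GV mean. In MII oocytes 1 and 2 they were at -3.55 and -4.50, and at -2.14 and -4.07.

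Opposite calls were few. Among the 1990 lower genes 60 were higher in young controls, and 3 of the 172 higher genes were lower there. In 12-month controls 5 of the lower genes were higher, Arhgef28, Ext2, Ddx55, Ptprf and Atp6v0a4, which are named because the count is small and after their values were seen. None of the higher genes was lower in 12-month controls. Over all 12161 genes, 1032 (8.49%) were higher and 1204 (9.9%) lower in young controls. In 12-month controls 169 (1.39%) were higher and 1548 (12.7%) lower.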

How the data were processed

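Single oocytes were lysed, the nucleus was pelleted, and libraries were made from the liquid above it, per the labels' protocols. The authors deposited 1 gene table per oocyte with an expected count, TPM and FPKM for each gene, per the file headers. The submitters' processing notes list TopHat2 2.1.1, Cufflinks, Trim Galore 0.4.5 and FastQC 0.11.8 and the builds mm10 and GRCm38; the step that gave the expected counts is not given in the sources used here. Deposited FPKM was not used, and the deposited TPM entered only an alternative.

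Expected counts were rounded to whole numbers. Young control GV libraries 1 and 2-1 held identical values for all 47069 genes and were counted as 1 oocyte, and 1 control GV library of 5009 counts was left out. TMM factors (edgeR 4.0.16, R 4.3.3) over 16 libraries gave scaled CPM, and 12161 genes passed edgeR's filter at a minimum count of 10. Ratios are log2 of means with 1 CPM added. The ratio and the calling rule were tested on simulated counts with known changes, in which oocytes of a stage shared the same mean level per gene. The loading step was not part of that test. Python 3.11.15, pandas 2.3.3, numpy 2.4.6, scipy 1.17.1 and matplotlib 3.10.9 were used.

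GENCODE vM21 named 46574 of the 47069 gene IDs. The unnamed genes held no more than 0.0562% of a library's counts.

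The members and lists were chosen with earlier results of these data known. The text names genes from 15 per direction with the largest log2 ratio that met the rule, up to 4 per list and direction, the 10 most abundant in each MII oocyte, and a fixed set of oocyte genes. Predicted genes and pseudogenes are counted and not named. Alternatives changed the scaling (including DESeq2 1.42.0 size factors), the filter, the CPM added, the unit, the fold and the oocytes used.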

Additional observations from a re-analysis of the deposited data

Results flagged for a closer look

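For 6 named genes, every oocyte of NMN-treated mice differed between stages in one direction and every oocyte of young controls in the opposite one. The difference between conditions was not tested for any of them, and the young contrast holds 2 GV oocytes. Young controls differ from NMN-treated mice in both age and NMN, which cannot be told apart here.

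Eno1, a glycolytic enolase, had a log2 ratio of -5.39 in NMN-treated mice and 5.04 in young controls. In NMN-treated mice it was at 140, 75.5 and 3.08 CPM in GV and 0.395, 0 and 1.87 CPM in MII. GV and MII oocytes 2-1 were thus both low and close to each other. Its young GV oocytes were at 0 CPM and the young MII oocytes at 16.9 to 53.5 CPM. Actb had -4.10 against 2.70, with 12.3 to 14.9 CPM in young GV and 50.8 to 134 CPM in young MII oocytes. Zw10, a kinetochore protein of the spindle checkpoint, had -4.47 against 2.40, and its young values were 0 to 6.44 and 7.47 to 37.2 CPM. Mau2, which loads cohesin, had -3.81 against 2.83, with 0 to 3.35 and 4.602 to 29.3 CPM in young oocytes. In 12-month controls the log2 ratios of Eno1, Actb and Zw10 were -1.72, -0.97 and -0.51, and that of Mau2 was 1.23.

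In the other direction, Robo2 had a log2 ratio of 4.50 in NMN-treated mice and -2.76 in young controls. Young GV oocytes were at 14.7 to 90.5 CPM and young MII oocytes at 0 to 12.0 CPM. The log2 ratio of Robo2 in 12-month controls was -0.62. Omt2a had 3.09 against -2.02, with 8467 to 10212 CPM in young GV and 771 to 3507 CPM in young MII oocytes. Its reads can be shared with Omt2b.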

How the results depend on the processing

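The number of lower genes, 1990, was 3019 with only oocytes whose titles carry no further batch 2 number, and 2004 to 2811 with each oocyte left out; it was 1491 with 5 CPM added, 1499 at a log2 ratio of 3, 1681 with TPM and 1871 with the filter run on the 6 oocytes. The number of higher genes, 172, was 114 with library totals, 60 with TPM, 393 and 34 at a log2 ratio of 1 and 3, 927 in the batch 2 pair (GV 2-1 and MII 2-1), 444 without that pair, and 204 to 460 with each oocyte left out. It was 592 for MII oocytes 2 and 2-1 against GV oocyte 2-1, with the titles read as batches, a reading added after seeing the data. The median of all genes, -0.82, was -0.37 with 5 CPM added, 0 in the batch 2 pair and under the added reading, -1.34 without the pair, and -1.33 to -0.66 with each oocyte left out. The ribosomal median, -3.84, was -5.69 without the pair and -5.97 to -3.64 with each oocyte left out, and mitochondrially encoded mRNAs had a median of 0.36 in the pair. The zona and secreted list reversed to 0.52 in the pair and 0.072 under the added reading. The cause of these shifts was not tested. Genes with at least 5 counts numbered 11035 and 10898 in GV oocytes 1 and 2 and 5164, 4572 and 6464 in the MII oocytes, since fewer genes reach 5 counts. All 132 called named genes kept their sign under 19 alternatives, and 11 of 15 lists with a median of at least 1 in size did. Besides the zona and secreted list, those that did not were core spliceosome (-1.14), spindle, tubulin and kinesin (-1.32) and fertilisation and egg calcium (-1.51). Each of these had a median of 0 in the pair, as did all genes. For the called genes, the rule of no overlap fixes the sign where only the oocytes used, the filter or the CPM added change. Their kept signs are no check of the results under those alternatives. No paired analysis was made. With the titles of MII oocytes 1 and 2 read as oocyte numbers, batch 2 ties only GV oocyte 2-1 to MII oocyte 2-1. Read literally, batch 2 also holds MII oocyte 2. Values for that pair and for the literal reading are given above. A count of 0 allows up to 1.18 CPM in an oocyte, so low genes cannot be called absent.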
